A study of Papio anubis with 24 samples.

Results

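Both mature strands of the miR-126 hairpin, miR-126-5p and miR-126-3p, were followed in the ectopic lesions and matched eutopic endometria of baboons (Papio anubis) with endometriosis. They were taken from the deposited small RNA count table by their mature names, hsa-miR-126-5p and hsa-miR-126-3p, and each name had a single precursor row, so 2 members of 2656 mature miRNAs are described, both of them among the 527 that reached 2 CPM (counts scaled to a common library size) in 2 or more libraries. The 24 libraries came from 12 animals, with 1 lesion and 1 eutopic library each, and fall into 4 groups: spontaneous lesions and spontaneous eutopic endometria (n = 4 each), from animals whose disease arose on its own, and induced lesions and induced eutopic endometria (n = 8 each), taken 15 months after disease was induced by placing menstrual tissue in the peritoneal cavity. All animals had endometriosis, so the eutopic endometrium is that of diseased animals, and every library is of bulk tissue. No genotype, strain or age is given in the labels, and no further treatment.

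miR-126 lies within an intron of EGFL7, a gene of the endothelial cells that line blood vessels, and is the miRNA most closely tied to these cells, although blood stem cells and platelets hold it too. In mouse and zebrafish, miR-126-3p represses SPRED1 and PIK3R2, brakes on signalling by the vessel growth factor VEGF, and so keeps vessels intact. In mouse, miR-126-5p represses DLK1 and sustains endothelial proliferation. New vessels grow into endometriotic lesions, and the endometrium itself forms and sheds vessels in each cycle.

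The libraries held 2592999 to 7573913 counts (median 5198008), and both strands were far above the limit of detection, since 3 counts, the limit that a count of 0 allows, came to 0.396 to 1.16 CPM. A smooth muscle miRNA, miR-143-3p, took 13.9 to 49.9% of the counts in spontaneous lesions and 10.1 to 31.0% in spontaneous eutopic endometria. It took 17.2 to 71.7% in induced lesions and 4.88 to 12.3% in induced eutopic endometria. Levels are therefore given as CPM scaled by the trimmed mean of M values (TMM), which sets libraries against each other by the bulk of their miRNAs, and beside them as CPM of the library total. One library stood apart: the eutopic library of induced animal PA7539 was the smallest, and its 5p to 3p ratio was the lowest or highest of the 8 induced eutopic libraries at 105 of 162 hairpins, against 22 to 53 of these hairpins for the other 7 libraries. With TMM scaling, the fold changes between tissues are given with and without this animal, and so is the strand ratio over all animals.

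Over the 12 animals, miR-126-5p was 2.28 times and miR-126-3p 2.05 times as high in lesions as in the eutopic endometrium with TMM scaling, and neither passed the test when CPM were taken of the library total. miR-126-5p averaged 9168 ± 3079 CPM in lesions and 4350 ± 2200 CPM in eutopic endometria (SD, n = 12 each), and miR-126-3p 1959 ± 734 CPM in lesions and 997 ± 498 CPM in eutopic endometria. The log2 fold change was 1.19 (SE 0.22, 95% interval 0.72 to 1.65, adjusted p = 0.000701) for miR-126-5p and 1.04 (SE 0.20, 0.62 to 1.46, adjusted p = 0.000831) for miR-126-3p, by the quasi-likelihood F test of edgeR, blocked by animal and adjusted over 527 miRNAs after Benjamini and Hochberg. Of these, 135 were called higher in lesions, 25.6% of those tested; both strands were among them. By size of the log2 fold change, miR-126-5p was the 63rd and miR-126-3p the 84th from the top. Without PA7539 the log2 fold changes were 1.05 for miR-126-5p and 0.96 for miR-126-3p, and both still passed. In bulk tissue, more cells of a type and more of a miRNA per cell cannot be told apart.

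In spontaneous disease 2 lesions lay above every spontaneous eutopic endometrium, and the other 2, of PA5655 and PA6762, lay below that of PA5655 only. Against its own endometrium, PA6762 had the largest rise of the 4 animals, 4.53 times for miR-126-5p and 4.10 times for miR-126-3p. miR-126-5p stood at 8494, 14026, 15106 and 9363 CPM in the lesions of PA5655, PA6303, PA6627 and PA6762, against 9693, 5983, 4105 and 2067 CPM in their eutopic endometria. miR-126-3p stood at 1966, 2896, 3408 and 1808 CPM in the same lesions, against 2245, 1311, 1070 and 441 CPM in the eutopic endometria. Both strands were higher in the lesion in 3 of 4 animals, and PA5655, with the highest eutopic level of all, had 0.876 times the eutopic level for miR-126-5p and likewise 0.876 times for miR-126-3p. The log2 fold change was 1.28 for miR-126-5p (SE 0.42, 95% interval 0.30 to 2.27, unadjusted p = 0.0179, adjusted p = 0.217) and 1.17 for miR-126-3p (SE 0.40, 0.22 to 2.12, unadjusted p = 0.0225, adjusted p = 0.219) by edgeR's quasi-likelihood test over 485 miRNAs. Neither passed, in a comparison where 1 miRNA, the erythroid miR-451a (named after its values were seen), was called higher, 0.206% of those tested. With 4 pairs, a two-sided exact permutation test by sign flips cannot go below p = 0.125, and it gave p = 0.25 for each strand.

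In induced disease both strands were higher in the lesion in 8 of 8 animals with TMM scaling, and groups overlapped only at their edges. miR-126-5p ran from 5218 to 11038 CPM in lesions (median 7552), against 1057 to 5524 CPM in eutopic endometria (median 3845). The lowest lesion, that of PA7255, was the only one below the highest eutopic value. miR-126-3p ran from 1009 to 2688 CPM in lesions (median 1540), against 408 to 1360 CPM in eutopic endometria (median 786), and 6 of 8 lesions lay above every eutopic library. Lesion over eutopic ratios spanned 1.27 to 5.40 for miR-126-5p and 1.18 to 3.86 for miR-126-3p. The log2 fold change was 1.12 for miR-126-5p (SE 0.24, 95% interval 0.59 to 1.66, adjusted p = 0.00453) and 0.96 for miR-126-3p (SE 0.21, 0.49 to 1.43, adjusted p = 0.00502) by edgeR's quasi-likelihood test over 507 miRNAs. In that comparison 105 miRNAs, 20.7% of those tested, were called higher. The exact permutation test by sign flips gave p = 0.00781 for each strand, the smallest it allows with 8 pairs, and p = 0.0281 after Benjamini-Hochberg adjustment over 18 exact tests. Without PA7539, whose eutopic endometrium had the lowest level of both strands in its group, the log2 fold changes were 0.94 for miR-126-5p and 0.86 for miR-126-3p, and both still passed (adjusted p = 0.00214 and adjusted p = 0.00529, edgeR's quasi-likelihood test).

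**Figure D1:**
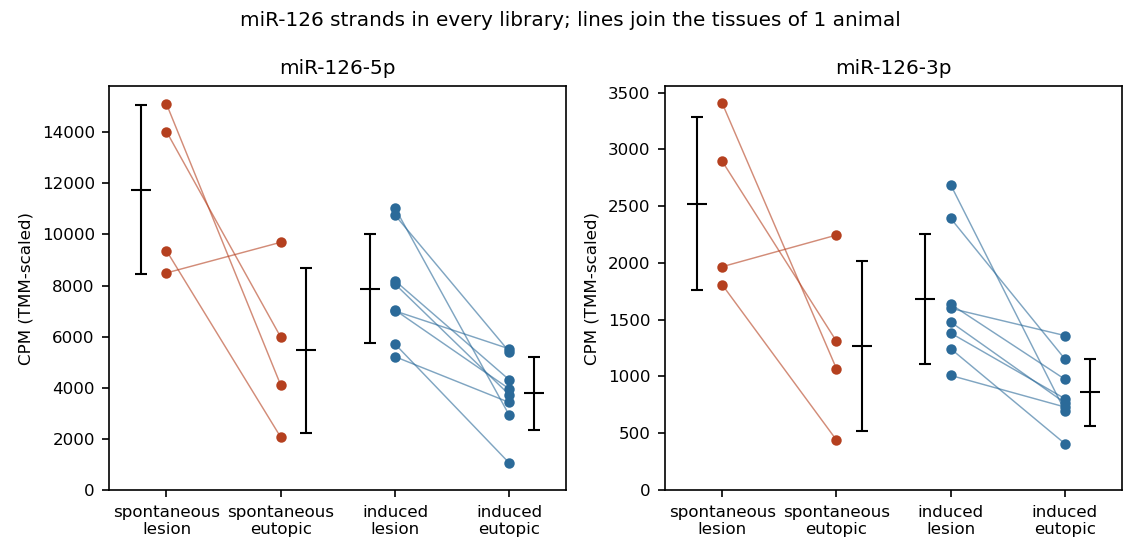
CPM with TMM scaling (vertical axes, linear and starting at 0) of miR-126-5p (left) and miR-126-3p (right) in each library; points are libraries, lines join the lesion and the eutopic endometrium of 1 animal, and bars beside them give the group mean ± SD. All 8 induced lines and 3 of 4 spontaneous lines run down from lesion to eutopic endometrium, and the line of PA5655 runs up; with CPM of the library total only 5 of 8 induced lines for miR-126-5p and 3 of 8 for miR-126-3p would run down.

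How the libraries were scaled decided the size of these differences. Under TMM, DESeq2's size factors and the upper quartile, the combined log2 fold change lay between 1.16 and 1.25 for miR-126-5p and between 1.02 and 1.10 for miR-126-3p. With library totals from which miR-143-3p had been taken out it was 0.91 for miR-126-5p and 0.76 for miR-126-3p, and both still passed (adjusted p = 0.00124 and adjusted p = 0.00199, edgeR's quasi-likelihood test). With whole library totals it was 0.33 for miR-126-5p (adjusted p = 0.179) and 0.18 for miR-126-3p (adjusted p = 0.503), in a comparison where 65.8% of miRNAs were called. In induced disease it was 0.15 for miR-126-5p and -0.028 for miR-126-3p, the sign of which had turned, and 64.5% of miRNAs were called. In spontaneous disease whole library totals left 0.70 for miR-126-5p and 0.59 for miR-126-3p, with 2.89% called and neither strand among them. By library totals, the lesion exceeded its eutopic partner in 8 of 12 animals for miR-126-5p and in 6 of 12 for miR-126-3p.

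The change of scale moved all miRNAs together. The median log2 fold change over all miRNAs tested in the combined comparison was -0.14 with TMM and -0.98 with library totals. Set against that median, miR-126-5p was higher by 1.33 with TMM and by 1.31 with library totals on the log2 scale, and miR-126-3p by 1.18 with TMM and by 1.16 with library totals. Within each disease, in spontaneous disease the values for miR-126-5p were 1.38 with TMM and 1.35 with library totals, and in induced disease 1.27 with TMM and 1.25 with library totals. A change of scale shifts every miRNA by about the same amount, so a near equal distance to the median on both scales follows from how it is computed and is no separate evidence of a higher level.

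The place of a strand among the miRNAs of its own library, in which no scaling enters, was compared as well. Counting from the most abundant miRNA, miR-126-5p held places 17, 11, 10 and 19 in the lesions of PA5655, PA6303, PA6627 and PA6762, against 14, 19, 25 and 33 in their eutopic endometria. In induced disease it held places 14 to 24 in lesions (median 18.5), against 19 to 56 in eutopic endometria (median 24.5). The place of 56 was that of PA7539, whose lesion held place 24, and places were not compared without that animal. miR-126-3p held places 28 to 49 in spontaneous lesions, against 45 to 80 in spontaneous eutopic endometria. In induced disease it held places 34 to 64 in lesions (median 50.5), against 55 to 86 in eutopic endometria (median 66.0). The place was nearer the top in the lesion in 10 of 12 animals for miR-126-5p, by 9.08 places on average (exact permutation test by sign flips, two-sided p = 0.00293), and in 11 of 12 for miR-126-3p, by 17.0 places (p = 0.000977). This comparison was added after the data had been seen, and its p-values were not adjusted and lie outside the 18 exact tests. A place is relative to the other miRNAs of the library and can rise because others fall. It therefore cannot decide between the scalings.

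**Figure D2:**
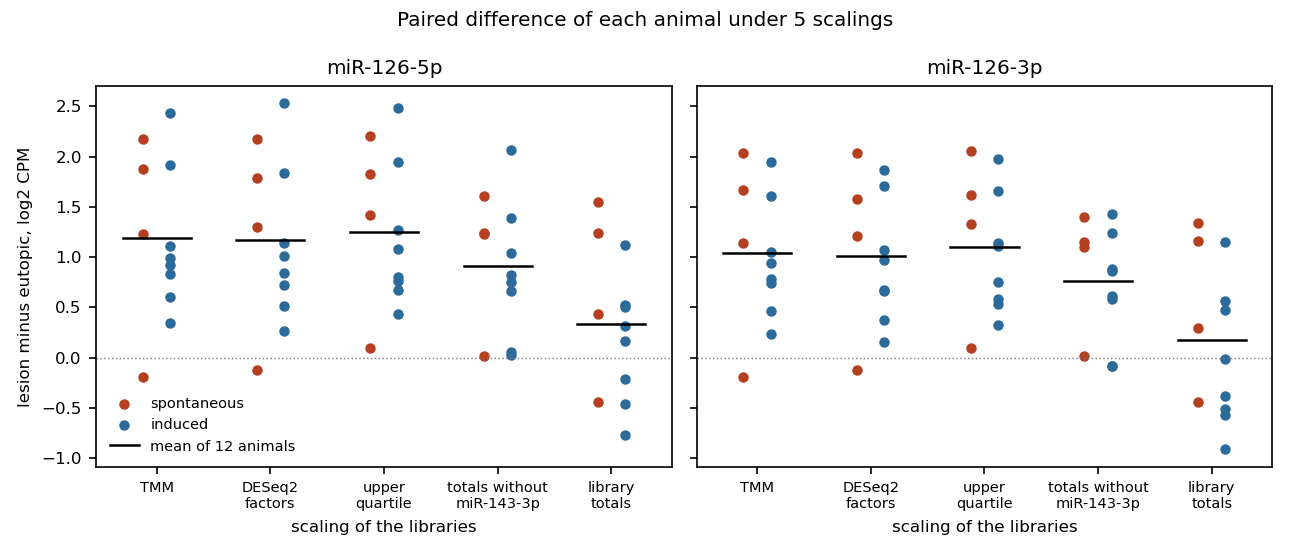
Lesion minus eutopic difference of each animal in log2 CPM (vertical axis) for miR-126-5p (left) and miR-126-3p (right) under 5 scalings (horizontal axis); points are animals, spontaneous left of induced at each scaling, and the black line is the mean of 12 animals. The means for miR-126-5p are 1.19 with TMM, 0.91 with totals without miR-143-3p and 0.33 with library totals; for miR-126-3p they are 1.04, 0.76 and 0.18, and with library totals 5 of 8 induced animals lie below 0 for this strand.

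Spontaneous and induced disease were then set against each other. In lesions, miR-126-5p averaged 11747 ± 3303 CPM in spontaneous (n = 4) and 7879 ± 2126 CPM in induced disease (n = 8), and miR-126-3p 2520 ± 762 CPM in spontaneous and 1679 ± 573 CPM in induced disease. The log2 fold changes were 0.61 for miR-126-5p (SE 0.24, 95% interval 0.095 to 1.13, unadjusted p = 0.0237) and 0.62 for miR-126-3p (SE 0.28, 0.028 to 1.21, unadjusted p = 0.0413), with an adjusted p = 0.603 for both by edgeR's quasi-likelihood test over 467 miRNAs. No miRNA was called in this comparison (0%), with 37 of 467 at an unadjusted p under 0.05, and 7 called by edgeR-robust and 1 by DESeq2. The relabelling of animals between diseases, an exact permutation test, gave p = 0.0404 for miR-126-5p and p = 0.0646 for miR-126-3p, and p = 0.121 and p = 0.145 after adjustment over 18 exact tests.

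In eutopic endometria the SD within spontaneous disease was larger than the difference between the group means. miR-126-5p averaged 5462 ± 3243 CPM in spontaneous (n = 4) and 3795 ± 1429 CPM in induced disease (n = 8), with a log2 fold change of 0.53 (SE 0.39, 95% interval -0.30 to 1.36, adjusted p = 0.622, edgeR's quasi-likelihood test). miR-126-3p averaged 1267 ± 748 CPM in spontaneous and 862 ± 295 CPM in induced disease, with a log2 fold change of 0.56 (SE 0.35, -0.18 to 1.31, adjusted p = 0.600, edgeR's quasi-likelihood test). None of 507 miRNAs was called (0%), with 54 at an unadjusted p under 0.05, 11 called by edgeR-robust and 3 by DESeq2. Leaving out single animals moved this difference. Without spontaneous animal PA5655 it was lowest, 0.093 for miR-126-5p and 0.13 for miR-126-3p, and without spontaneous animal PA6762 it was highest, 0.80 for miR-126-5p and 0.85 for miR-126-3p. Without PA7539 it was 0.32 for miR-126-5p and 0.39 for miR-126-3p. The lesion effect itself differed between the diseases by 0.16 for miR-126-5p (95% interval -0.86 to 1.18) and 0.21 for miR-126-3p (-0.71 to 1.13) on the log2 scale, adjusted p = 0.973 and adjusted p = 0.970 by edgeR's quasi-likelihood test, with 0% of 527 miRNAs called, 16 at an unadjusted p under 0.05, and 3 called by edgeR-robust and 3 by DESeq2. Without PA6762 the sign of this difference turned for both strands, to -0.15 for miR-126-5p and -0.083 for miR-126-3p, and without PA6627 it turned for miR-126-5p, to -0.040.

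The ratio of both strands needs no scaling between libraries. miR-126-5p outnumbered miR-126-3p in all 24 libraries, with 4.54 ± 0.57 reads of 5p for each read of 3p (SD, n = 24). The ratio averaged 4.69 ± 0.39 in spontaneous lesions and 4.35 ± 0.37 in spontaneous eutopic endometria (n = 4 each), and 4.79 ± 0.46 in induced lesions and 4.30 ± 0.76 in induced eutopic endometria (n = 8 each). It ran from 4.32 to 5.18 in spontaneous lesions, against 3.84 to 4.68 in their eutopic endometria, and from 4.11 to 5.45 in induced lesions, against 2.59 to 4.92 in induced eutopic endometria, so the groups overlapped in both diseases. The lowest value, 2.59, was that of the eutopic library of PA7539, where miR-126-5p was 72.1% of the reads of both strands (95% Wilson interval 71.1 to 73.2%, counting error only), against 79.3 to 84.5% in the other 23 libraries. Strands can be captured with unequal efficiency when a library is made, so the ratio is one of reads, not of molecules.

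Of 162 hairpins with both strands above the filter, miR-126 had the smallest spread of the log2 ratio within groups, an SD of 0.19 against a median of 0.64 over these hairpins. Counting error is smaller at high counts, and among the 8 hairpins with a mean of at least 1000 counts for each strand miR-126 again had the smallest, against a median of 0.37.

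In 10 of 12 animals the lesion had the slightly higher 5p to 3p ratio, and in PA7258 and PA7457 the lower. The log2 difference averaged 0.15, a ratio 1.11 times that of the eutopic endometrium. It exceeded 2 counting errors upward in 8 animals and downward in 1. Tests did not agree on it: limma over 162 hairpins gave an SE of 0.11, a 95% interval of -0.093 to 0.40 and an adjusted p of 0.434, in a comparison where 19.1% of hairpins were called, whereas the exact permutation test by sign flips on miR-126 alone gave p = 0.00635, adjusted p = 0.0281 over 18 exact tests. limma takes part of its error from all hairpins, whose median spread is given above. Without PA7539, with a difference of 0.83 the largest, the mean was 0.090 (exact permutation p = 0.0127, limma adjusted p = 0.581), a ratio 1.06 times as high. In spontaneous disease the difference was 0.11 and positive in 4 of 4 animals (exact permutation p = 0.125, the smallest allowed; limma adjusted p = 0.928, 0% called). In induced disease it was 0.17 and positive in 6 of 8 (exact permutation p = 0.0469, adjusted p = 0.121; limma adjusted p = 0.597, 7.19% called). Spontaneous and induced disease differed in the log2 ratio by -0.026 in lesions and 0.036 in eutopic endometria, with limma adjusted p = 0.996 and limma adjusted p = 0.965 and 0% called in each.

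**Figure D3:**
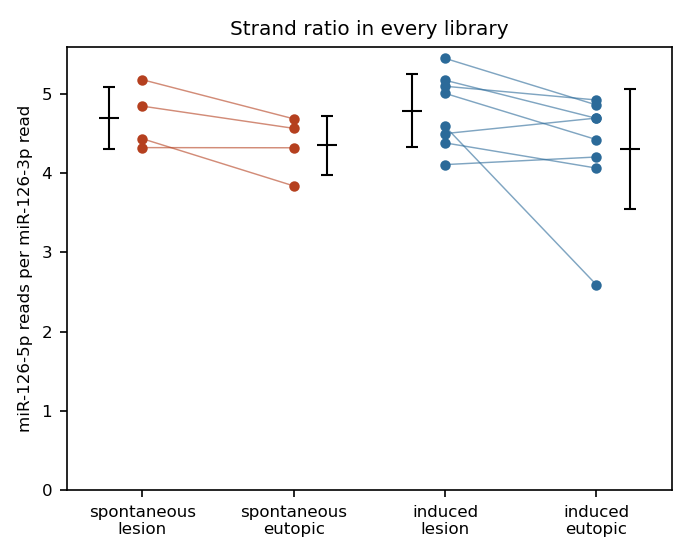
Reads of miR-126-5p for each read of miR-126-3p (vertical axis, linear and starting at 0) in each library; points are libraries, lines join the tissues of 1 animal, and bars give the group mean ± SD. Of 24 libraries 23 lie between 3.84 and 5.45, and the eutopic library of PA7539 lies at 2.59.

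Both strands moved together from animal to animal. The lesion minus eutopic differences of the strands correlated over 12 animals with Pearson's r = 0.96 (permutation p = 0.00001, the smallest that 100000 permutations can give) and Spearman's rho = 0.94 (permutation p = 0.00002), and r was 0.93 without the 2 animals farthest from the median. Within the 8 induced lesions r was 0.96 (exact permutation p = 0.000248) and rho 0.93 (exact permutation p = 0.00223), and r was 0.90 without the 2 farthest. Within the 8 induced eutopic endometria r was 0.95 (exact permutation p = 0.0000248) and rho 1 (exact permutation p = 0.0000496), and r was 0.96 without the 2 farthest. After adjustment over the 3 relations the p of r was 0.00003, 0.000248 and 0.0000372 in the same order. The strands of 1 hairpin share their library and its scaling factor, which adds to such a correlation.

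Other miRNAs known from endothelial cells were counted beside miR-126. Of 6 listed, 5 were tested, and 4 of these rose in lesions in the combined comparison with TMM scaling and none fell, with a median log2 fold change of 0.83 against -0.14 over all miRNAs. Of all 527 miRNAs tested there, 25.6% were called higher and 27.1% lower. With library totals, where 7.21% of all miRNAs were called higher and 58.6% lower, none of the 5 rose, 1 of them, miR-130a-3p, fell, and the median was -0.0048 against -0.98 over all miRNAs. miR-130a-3p, which promotes endothelial growth by repressing GAX and HOXA5, averaged 1548 ± 732 CPM in spontaneous lesions and 1491 ± 609 CPM in spontaneous eutopic endometria, and did not pass in the combined comparison (log2 fold change 0.30, adjusted p = 0.135, edgeR's quasi-likelihood test). miR-221-3p and miR-222-3p, which share a seed and repress the receptor KIT in endothelial cells, had log2 fold changes of 0.83 and 0.81, and miR-218-5p, which targets the guidance receptor ROBO1, of 1.21. In induced disease alone all 5 rose with TMM scaling, with a median of 0.92, where 20.7% of all miRNAs were called higher, and none was called with library totals, where 6.51% of all were called higher and 58.0% lower. In spontaneous disease none was called, with a median of 0.67 against -0.094 over all miRNAs. Of all 485 miRNAs tested there, 0.206% were called higher and 0% lower. miR-139-3p was below the filter. Animal by animal, the signed lesion minus eutopic difference of miR-126-5p lay above the mean of this list in 8 of 12 animals (median 0.067 on the log2 scale). That of miR-126-3p did so in 5 of 12 (median -0.10).

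Among 11 miRNAs known to promote vessel growth, 6 rose and 1, the hypoxia miRNA miR-210-3p, fell in the combined comparison with TMM scaling, with a median log2 fold change of 0.68, beside 25.6% higher and 27.1% lower among all miRNAs. The most abundant, miR-27b-3p, miR-23b-3p, miR-378a-3p and miR-27a-3p, rose by 0.73, 0.68, 1.11 and 0.94 on the log2 scale, whereas with library totals none of the 11 rose and 4 fell, beside 7.21% higher and 58.6% lower among all miRNAs. Among 17 known to restrain it, 5 rose and 6 fell, with a median of -0.17, close to that of all miRNAs. Of its most abundant members, miR-100-5p rose by 1.69 and miR-424-5p fell by 1.01, while miR-92a-3p and miR-16-5p had log2 fold changes of -0.26 and 0.19 and did not pass. With library totals 1 of the 17, miR-100-5p, rose and 12 fell, where 58.6% of all miRNAs fell. The lists overlap in part, since miR-130a-3p stands in the endothelial and the promoting list and miR-221-3p and miR-222-3p in the endothelial and the restraining list. miR-200b-3p, miR-200c-3p and miR-429 stand in the restraining and the epithelial list. All of these had a lower mean CPM in lesions in both diseases, so the restraining list counts part of the epithelial fall again.

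The markers of other cells moved with tissue as well, and their part in the miR-126 values was not tested. Of 11 epithelial miRNAs tested, 10 were lower in lesions in the combined comparison with TMM scaling, where 27.1% of all miRNAs were called lower, and their summed level ran from 610 to 3686 CPM in spontaneous lesions, against 8096 to 17763 CPM in spontaneous eutopic endometria, and from 776 to 10164 CPM in induced lesions, against 9810 to 24636 CPM in induced eutopic endometria. With TMM scaling all 4 smooth muscle and mural miRNAs, 3 of 4 striated muscle miRNAs tested, 4 of 7 leukocyte and 4 of 5 erythroid miRNAs were higher, beside 25.6% of all miRNAs. With library totals these counts were 4, 3, 1 and 4, beside 7.21% of all miRNAs, with 1 leukocyte miRNA, miR-342-3p, lower. The leukocyte sum ran from 1407 to 15721 CPM in spontaneous lesions, against 777 to 2517 CPM in spontaneous eutopic endometria, and from 837 to 3994 CPM in induced lesions, against 612 to 1329 CPM in induced eutopic endometria. The erythroid sum ran from 911 to 42383 CPM in spontaneous lesions, against 244 to 19393 CPM in spontaneous eutopic endometria, and from 963 to 32593 CPM in induced lesions, against 285 to 1614 CPM in induced eutopic endometria. PA5655 had the highest eutopic smooth muscle and mural sum, 433413 CPM, and PA6303 the next, 326969 CPM. The other eutopic libraries held 26509 to 92441 CPM, and spontaneous lesions 107303 to 987614 CPM. Eutopic striated muscle sums were 861 CPM in PA5655 and 556 CPM in PA6303, against 8.78 to 118 CPM elsewhere. Whether muscle content bears on miR-126, lower in the lesion of PA5655 but higher in that of PA6303, was not tested. No marker of these lists was at 0 in every library of a group, except 2 of the 6 striated muscle markers in spontaneous lesions, spontaneous eutopic and induced eutopic endometria.

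Within an animal, the change of miR-126 could be set against that of these lists without any scaling. The signed lesion minus eutopic difference of miR-126-5p lay above that of the epithelial list in 12 of 12 animals (median 3.04 on the log2 scale). The epithelial list itself fell, with a median log2 fold change of -2.43 in the combined comparison with TMM scaling. miR-126-5p lay above the restraining list, which shares members with the epithelial list, in 12 of 12 (median 1.49). It lay above the promoting list in 10 of 12 (median 0.85) and the leukocyte list in 7 of 12 (median 0.27, range -2.22 to 1.31). It lay above the smooth muscle and mural list in 2 of 12 (median -1.41). For the erythroid list this held in 2 of 12 (median -1.26), and for the striated muscle list in 1 of 12 (median -2.41). miR-126-3p gave the same counts for each of these lists. By these medians, the shift of miR-126 between tissues lay above that of the epithelial list and below those of the mural, erythroid and striated muscle lists. It lay near those of the other endothelial and the leukocyte lists, with a wide spread between animals for the leukocyte list.

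**Figure D4:**
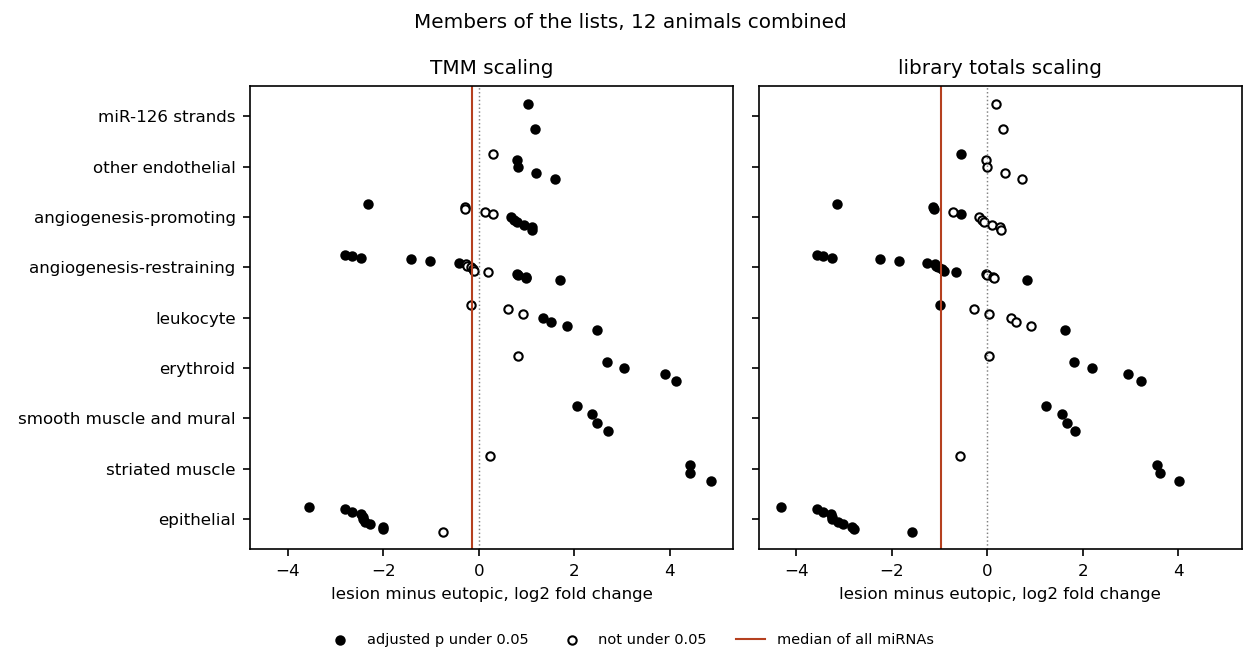
Lesion minus eutopic log2 fold change (horizontal axis) of each tested member of the lists (rows) over 12 animals, with TMM scaling (left) and with library totals (right); filled points had an adjusted p under 0.05 (quasi-likelihood test of edgeR), and the vertical line is the median of all miRNAs, at -0.14 with TMM and -0.98 with library totals. Both miR-126 strands pass with TMM and neither passes with library totals, and they lie right of the median on both scales.

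The miRNAs whose level followed miR-126 most closely within groups were named over all 24 libraries, from 208 miRNAs with a mean of at least 5 on the log2 CPM scale. For miR-126-3p, after miR-126-5p (r = 0.95), they were miR-142-5p (r = 0.78), miR-34a-5p (r = 0.74), miR-146a-5p (r = 0.72) and miR-101-3p (r = 0.68), against a median r of 0.086 over the 208. For miR-126-5p, after miR-126-3p, they were miR-374a-5p (r = 0.76), miR-101-3p (r = 0.75), miR-142-5p (r = 0.73) and miR-21-5p (r = 0.72), against a median r of 0.10. miR-142-5p and miR-146a-5p are known from leukocytes, and miR-21-5p from many stressed and fibrotic tissues. With library totals, 3 of these 5 for miR-126-3p and 4 of 5 for miR-126-5p, the partner strand included, were again among the top 5, and the median r was 0.43 for miR-126-3p and 0.37 for miR-126-5p. The libraries share their scaling factors, and these values carry no test.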

How the data were processed

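Total RNA was made into small RNA libraries (Illumina TruSeq). Per the series' design text, the authors trimmed the reads with Trim Galore 0.3.3 and mapped them to human miRNAs of miRBase release 22 with miRDeep2 0.0.7; the deposited values are raw read counts per mature miRNA and precursor. Reads that differ between baboon and human may be lost, and no sequence or genome coordinate is given here. Each library was assigned by its title and its animal by the label. Members and lists were chosen with earlier results of these data known.

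Of several precursor rows the one with the highest total was kept. miRNAs that reached 2 CPM in 2 or more libraries of a comparison were tested with edgeR 4.0.16 (TMM, robust quasi-likelihood F test, animal as block where both tissues entered, Benjamini-Hochberg, threshold 0.05). Pairs come from the animal named in the labels; deviations of the 2 tissues of an animal correlated between -0.14 and 0.48 (median 0.18). Strand ratios, log2 of 5p over 3p counts with 0.5 added to each, were tested with limma 3.58.1 over hairpins and, for miR-126, with exact permutation tests (Python, scipy 1.17.1), two-sided. Log2 CPM for single values used a prior count of 1. Both strands were always named, with the 5 most like miRNAs for each and up to 4 members of a list by mean CPM. Alternatives were DESeq2 1.42.0, edgeR-robust, other scalings and filters, summed precursors, no block, and leaving out each animal. No 2 libraries of a group agreed within sampling noise (chi-square per degree of freedom at least 135 over 68 pairs). Samples of a group are separate animals, and the number of animals limits the precision more than depth does. Tests were tried on simulated counts first.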

Additional observations from a re-analysis of the deposited data

Results flagged for a closer look

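Each group and the differences of each disease were examined for both strands and their ratio, 18 sets of samples. Of these, 3 held a sample far from the others, and all 3 came from the eutopic library of PA7539. Chance alone flags about 1 in 20 sets of normal values. The sets share libraries, so the 3 flags are not separate findings and cannot be set against that rate. In that library miR-126-5p stood at 10.05 on the log2 CPM scale, the next lowest induced eutopic library at 11.52, a gap of 0.616 of the range of the 8. Its log2 ratio of 5p over 3p was 1.37, the next lowest 2.02, a gap of 0.701 of the range. The lesion minus eutopic difference of the log2 ratio in PA7539 was 0.83, the next highest 0.18, a gap of 0.729 of the range. miR-126-3p of the same library, at 408 CPM the lowest of its group, was not far from the others by this measure. The cause was not tested.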

How the results depend on the processing

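With library totals miR-126-3p reversed in induced disease (-0.028, adjusted p = 0.930), and miR-126-5p in induced disease (0.15, adjusted p = 0.583) and both strands in the combined comparison (0.33 for miR-126-5p, 0.18 for miR-126-3p) no longer passed. In spontaneous disease miR-126-5p passed with no filter (1.21, edgeR adjusted p = 0.0219), the only alternative there under which a strand passed; edgeR-robust gave an adjusted p = 0.0550 and DESeq2 an adjusted p = 0.0528. The 1 miRNA called in spontaneous disease became 0 with DESeq2 factors, the upper quartile, filterByExpr, summed precursors or no replicate block, 14 with library totals, 9 with totals without miR-143-3p, 68 with no filter, 45 with edgeR-robust, 48 with DESeq2 and 0 without each replicate in turn. The 0 called between diseases became 7 with edgeR-robust and 1 with DESeq2 in lesions, 11 and 3 in eutopic endometria (0 to 8 without each replicate), and 3 and 3 for the difference of the lesion effect. By the exact permutation test the strand ratio passed in the combined comparison (0.15, adjusted p = 0.0281) and in induced disease (0.17) only before adjustment over the 18 exact tests (adjusted p = 0.121). Without each replicate in turn, the log2 ratio ran from -0.075 to 0.013 between lesions, from -0.065 to 0.095 between eutopic endometria and from -0.095 to 0.032 for the difference of the lesion effect, and that difference from -0.15 to 0.65 for miR-126-5p and from -0.083 to 0.66 for miR-126-3p, all of them changing sign; these values lay within their errors.

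Without each replicate in turn, the combined log2 fold change ran from 1.05 to 1.31 for miR-126-5p and from 0.92 to 1.15 for miR-126-3p, and both passed each time, as they did in induced disease. Without the replicate block it was 1.07 for miR-126-5p and 0.97 for miR-126-3p, and the pairing changed no call of a strand. Of the counts within lists, of like miRNAs and of animals, 20 moved and 36 did not with library totals or with places within a library. The limits are the 4 spontaneous animals and the share of miR-143-3p, up to 71.7% of a library; a change relative to other miRNAs is measured here, not an amount per cell.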

Other observations

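Among the abundant hairpins, those with at least 1000 counts a strand on average, 5 of the 7 others had a larger mean difference of the strand ratio between tissues than miR-126 in size, most of all miR-21 and miR-199b. For miR-21, known from fibrosis, the lesion had the higher log2 ratio of 5p over 3p in 12 of 12 animals, by 0.77 on average, and for miR-199b in 0 of 12, with a mean difference of -0.69; for miR-126 the values are 10 of 12 and 0.15. The mean difference was 0.25 for miR-145, -0.22 for miR-151a and 0.21 for miR-199a. miR-199a-3p and miR-199b-3p have the same sequence, so their reads cannot be assigned to either hairpin. The ratios of miR-199a and miR-199b are therefore not those of a single hairpin. In the eutopic library of PA7539 the log2 ratio of miR-145, a smooth muscle miRNA, stood at 3.93, against 0.51 to 1.87 in the other 7 induced eutopic libraries, and that of miR-21 at 2.62, against 3.67 to 5.12. These hairpins were chosen after their values were seen, and no test was made of them.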
